A study of Homo sapiens with 12 samples.

Results

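The 39 genes described here belong to the Fanconi anaemia (FA) pathway of DNA interstrand crosslink repair and to homologous recombination, and they were taken by symbol from the 60483 gene rows of a TAZ time course in MCF10A cells. MCF10A is an immortalised human mammary epithelial line that is not transformed. The cells had been transduced with a Tet-inducible, activated form of the Hippo pathway co-activator TAZ (TAZ-4SA), so the groups were TAZ-4SA cells kept in Dox (0.05 µg/mL) and collected after 24 h, after 48 h and after 72 h, and the same cells without Dox (No Dox, 0 h), with 3 RNA-seq libraries each and 12 in all. All groups were grown in medium with horse serum, EGF, hydrocortisone, cholera toxin and insulin. All 39 genes were found and all 39 passed the filter on low counts, which kept 14822 genes. The cells are a single transduced line, and the labels do not say whether the 3 libraries of a group came from separate cultures, so each p-value reflects the scatter among these libraries alone, which may be technical. Cells without the transgene in Dox, or without Dox at the later times, were not analysed here, so the transgene, the drug and the time in culture cannot be told apart.

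In the FA pathway a core complex of FANC proteins, with FANCL as its ubiquitin ligase and UBE2T as the ubiquitin-conjugating enzyme, attaches ubiquitin to FANCD2 and FANCI, which then clamp the DNA at a crosslink. Nucleases unhook the crosslink, and the break that results is resected and repaired by homologous recombination, in which the BRCA proteins load a recombinase onto single-stranded DNA and accessory factors help it to pair with the sister chromatid. In mammary epithelium the pathway is best known because inherited loss of BRCA1, BRCA2 or PALB2 predisposes to breast cancer, and many of its genes are transcribed mainly in S and G2 phase of the cell cycle.

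Libraries held 15382564 to 26570132 expected counts, and 17873 to 19432 genes had at least 1 count. WWTR1, which encodes TAZ, averaged 887 ± 68.1 CPM (library-scaled counts with TMM factors) in 24 h cells, 843 ± 73.5 CPM in 48 h cells and 994 ± 59.2 CPM in 72 h cells, set against 71.7 ± 2.88 CPM without Dox (SD, n = 3 each), as the labels have it. Of the 8 mammary epithelial markers, all were measured in every group, with KRT5 at 1650 to 3518 and CDH1 at 180 to 335 CPM in the group means, while TP63 averaged 4.45, 2.77 and 1.49 CPM in the 24, 48 and 72 h groups, against 77.3 CPM without Dox. At 24 h, 2 of the 8 were called higher and 2 lower than without Dox by the rule given below (12% and 17.7% of all genes). The fibroblast markers PDGFRA, COL1A2 and COL3A1 and the leukocyte marker CD3E had no counts in any library. Of 7 fibroblast, 5 endothelial and 6 leukocyte markers, 3, 3 and 1 passed the filter. The summed level of the fibroblast markers was 3.18 to 4.90 CPM at 24 h, against 54.5 to 56.3 CPM without Dox, mostly from DCN, and that of the endothelial markers was 1.87 to 3.23 CPM at 24 h, against 36.6 to 37.9 CPM without Dox, mostly from KDR.

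At 24 h of Dox treatment, 24 of the 39 genes (61.5%) were called higher than in No Dox cells, against 12% of all genes tested, and 1, the damage kinase gene ATM, was called lower, against 17.7% of all genes. The genes that rose the most were UBE2T, the strand exchange factor RAD51AP1 and the exonuclease EXO1, all over 4-fold. A gene was called where edgeR's quasi-likelihood test gave a Benjamini-Hochberg adjusted p under 0.05 over all 14822 genes and the absolute log2 fold change was at least 1. The median log2 fold change of the 39 genes was 1.04, beside -0.03 for all genes tested. The 39 genes were chosen with earlier results of these data known, so these contrasts with all genes describe the list and do not test it. In CPM, the 3 Dox libraries at 24 h lay wholly outside the range of the 3 No Dox libraries for every member. They were above it in 35 members (38% of all genes) and below it in 4 (39.6% of all genes). The 4 below were ATM, RAD50, MRE11 and FANCF. Of the 24 genes called higher, 11 had a log2 fold change of at least 1.5 and 7 lay under 1.1, close to the threshold. Without the second library at 24 h, 18 genes were called higher, since FANCB, FANCC, FANCM, BRCA2, XRCC2 and RMI1 had log2 fold changes of 0.74 to 0.995.

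Cell cycle genes were higher in the same libraries. Of 22 genes of G1/S and DNA replication, 21 were called higher at 24 h, with a summed level of 2183 TPM (length-scaled transcript abundance, 2139 to 2226 over the 3 libraries), against 653 TPM without Dox (630 to 671). All 22 genes of G2/M were called higher, with a sum of 3561 TPM at 24 h (3498 to 3660), against 740 TPM without Dox (732 to 744). Their part in the values of the 39 genes was not tested. In bulk RNA, a larger share of cycling cells and more RNA per cell cannot be told apart.

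**Figure D1:**
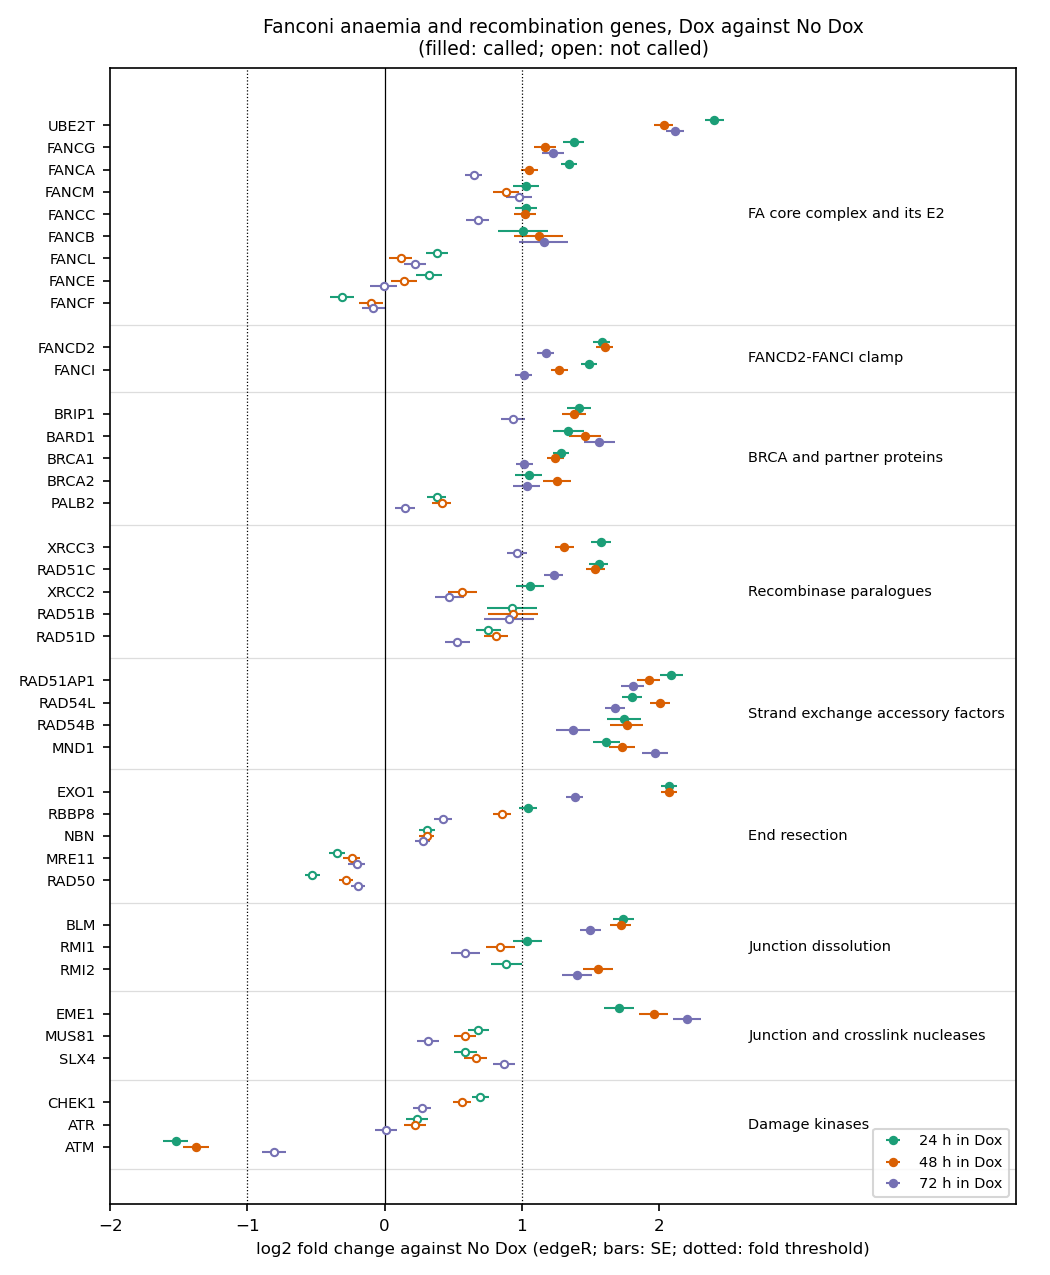
Log2 fold change of each of the 39 genes against No Dox cells at 24, 48 and 72 h in Dox (edgeR, bars are the SE, dotted lines mark the fold threshold), grouped by role. Filled points are called; most filled points lie to the right of the threshold and ATM alone lies to the left of -1, at 24 h and 48 h.

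Promoter sequences are shown for the 3 genes with the largest and, among members with a window, the 3 with the smallest absolute log2 fold change at 24 h, because motifs of cell cycle transcription were searched in them. Each is the RefSeq window of 250 bases before and 50 bases after a start site on GRCh38.p14, written 5′ to 3′ on the gene's strand, and capitals mark matches on either strand to an E2F motif (the heptamer TTCCCGC, its variant TTCGCGC, the variant TTGCCGC or the variant TTGGCGC), to a CHR element (spelled TTTGAA or else spelled TTTAAA) or to a CCAAT box (the letters CCAAT). The largest changes were those of UBE2T (chr1:202341887-202342186, minus strand), RAD51AP1 (chr12:4538640-4538939, plus strand) and EXO1 (chr1:241847954-241848253, plus strand).
UBE2T: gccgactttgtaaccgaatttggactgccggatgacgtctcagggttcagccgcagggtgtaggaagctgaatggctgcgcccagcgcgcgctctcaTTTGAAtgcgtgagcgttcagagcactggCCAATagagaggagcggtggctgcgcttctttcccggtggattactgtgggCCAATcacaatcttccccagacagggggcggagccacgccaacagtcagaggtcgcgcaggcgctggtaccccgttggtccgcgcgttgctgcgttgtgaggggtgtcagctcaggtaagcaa
RAD51AP1: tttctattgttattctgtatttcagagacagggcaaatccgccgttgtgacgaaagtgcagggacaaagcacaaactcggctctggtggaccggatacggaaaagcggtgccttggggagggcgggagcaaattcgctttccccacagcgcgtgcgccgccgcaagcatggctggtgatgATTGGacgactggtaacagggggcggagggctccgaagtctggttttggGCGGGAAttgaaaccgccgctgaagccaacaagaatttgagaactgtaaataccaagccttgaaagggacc
EXO1: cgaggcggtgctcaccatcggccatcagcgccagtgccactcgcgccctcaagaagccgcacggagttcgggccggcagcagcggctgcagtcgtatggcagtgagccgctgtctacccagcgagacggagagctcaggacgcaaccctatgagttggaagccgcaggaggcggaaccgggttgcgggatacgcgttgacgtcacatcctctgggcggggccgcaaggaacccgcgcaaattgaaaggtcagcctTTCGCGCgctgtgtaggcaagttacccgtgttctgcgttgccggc

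The smallest changes were those of the kinase gene ATR (chr3:142578684-142578983, minus strand) and of the core complex genes FANCF (chr11:22625774-22626073, minus strand) and FANCE (chr6:35452088-35452387, plus strand), whose windows are given for comparison with those of UBE2T, RAD51AP1 and EXO1.
ATR: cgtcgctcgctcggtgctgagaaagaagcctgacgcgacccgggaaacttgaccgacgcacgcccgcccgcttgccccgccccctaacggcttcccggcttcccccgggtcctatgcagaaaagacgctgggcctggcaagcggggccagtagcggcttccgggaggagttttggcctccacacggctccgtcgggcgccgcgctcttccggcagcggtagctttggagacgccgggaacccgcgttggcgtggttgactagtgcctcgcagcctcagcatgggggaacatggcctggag
FANCF: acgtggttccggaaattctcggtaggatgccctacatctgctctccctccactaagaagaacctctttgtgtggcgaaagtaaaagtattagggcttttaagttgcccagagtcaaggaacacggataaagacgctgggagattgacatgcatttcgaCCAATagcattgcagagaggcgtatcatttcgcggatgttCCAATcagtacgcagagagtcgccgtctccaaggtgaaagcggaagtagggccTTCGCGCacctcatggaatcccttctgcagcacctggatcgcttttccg
FANCE: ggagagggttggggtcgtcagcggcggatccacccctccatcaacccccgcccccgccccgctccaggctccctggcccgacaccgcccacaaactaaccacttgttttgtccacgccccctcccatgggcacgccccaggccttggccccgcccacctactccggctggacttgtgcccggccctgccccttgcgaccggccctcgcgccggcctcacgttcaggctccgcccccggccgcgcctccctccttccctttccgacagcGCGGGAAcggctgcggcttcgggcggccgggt

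The UBE2T window held a CHR element that began at position -153 and CCAAT boxes at -124 and -73, counted with the start site as 0, and no E2F match. RAD51AP1 had an inverted CCAAT box at -70 and an E2F match at -21, and EXO1 had an E2F match at 5. EXO1 has another RefSeq window, not shown, which held a CHR element and no E2F match. Among the genes with small changes, FANCF held CCAAT boxes at -92 and -52 and an E2F match at 1, FANCE held an E2F match at 18, and the ATR window had no match to any of the 3 motifs. The RefSeq table gave 48 windows for 35 members, while FANCI, RMI2, RAD54B and NBN were not matched. An E2F match was present in 19 of 30 windows (63.3%) of genes called higher at 24 h and in 5 of 18 windows (27.8%) of the other members, beside 13% of all 35116 windows. CHR elements were found in 16.7% of the windows of genes called higher, 16.7% of those of other members and 24% of all windows, and CCAAT boxes in 36.7%, 50% and 34.6% of these. Letters of TTGGCGC can also belong to an inverted CCAAT box. These are matches of letters and do not show binding.

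Within the FA core complex and its conjugating enzyme, 6 of 9 genes were called higher at 24 h, 5 at 48 h and 3 at 72 h. Of all genes tested, 12%, 10.6% and 10.2% were called higher at these times, which also stands beside the counts of the other roles below. UBE2T (ENSG00000077152, chr1:202331544-202341984 on the minus strand, GRCh38, GENCODE version 44), which supplies the ubiquitin for FANCD2 and FANCI, had 18.1, 18.05 and 19.2 CPM without Dox, 98.4, 97.4 and 97.4 CPM at 24 h, 78.5, 74.3 and 74.1 CPM at 48 h, and 75.5, 76.5 and 87.8 CPM at 72 h. The Dox libraries were all far above those without Dox, and its log2 fold change was 2.40 ± 0.067 (SE) at 24 h (edgeR, adjusted p = 5.7e-18) and 2.12 ± 0.068 at 72 h. FANCG, a scaffold subunit of the core complex, had 15.5, 18.2 and 16.9 CPM without Dox, 44.3, 39.5 and 47.05 CPM at 24 h, 38.8, 38.2 and 35.8 CPM at 48 h, and 41.1, 37.2 and 39.3 CPM at 72 h. FANCG had a log2 fold change of 1.38 ± 0.080 at 24 h (adjusted p = 1.31e-12) and group means at 48 h and 72 h that stayed above No Dox.

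FANCA, the binding partner of FANCG, followed another course. Its libraries had 32.5, 32.1 and 32.9 CPM without Dox, 84.6, 80.00 and 83.1 CPM at 24 h, 67.9, 63.4 and 71.7 CPM at 48 h, and 51.6, 50.7 and 50.5 CPM at 72 h, so that every 72 h library lay below every 24 h and 48 h library and above every No Dox library. The log2 fold change was 1.34 ± 0.058 at 24 h (adjusted p = 9.93e-15) and 0.65 ± 0.060 at 72 h, where it was not called. FANCF, the adaptor that links FANCM to the complex, had the smallest difference in this group at 24 h, with 17.2, 19.2 and 16.9 CPM without Dox, 13.8, 14.6 and 14.3 CPM at 24 h, 16.2, 15.7 and 17.8 CPM at 48 h, and 18.03, 16.02 and 16.1 CPM at 72 h. FANCF had a log2 fold change of -0.31 ± 0.088 at 24 h (adjusted p = 0.00289), under the fold threshold. The ligase gene FANCL and FANCE, which binds FANCD2, were not called at any time, with log2 fold changes of 0.38 ± 0.080 and 0.32 ± 0.094 at 24 h. The remaining 3 genes were near the threshold at 24 h, namely FANCM, the DNA translocase that brings the complex to DNA (1.03 ± 0.094), FANCC (1.03 ± 0.082) and FANCB (1.01 ± 0.18), and FANCB had the lowest level of the 39 genes without Dox (1.59 TPM). Without the third No Dox library, FANCB (0.96) and FANCM (0.97) were not called at 24 h and FANCC (0.997) was not called at 48 h, and FANCM was called at 72 h without the first No Dox library (1.05) or the second 72 h library (1.02).

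Both genes of the clamp that the core complex ubiquitinates were called higher at all 3 times. FANCD2 (ENSG00000144554, chr3:10026370-10101932 on the plus strand) had 19.4, 21.01 and 19.6 CPM without Dox, 60.2, 62.3 and 56.7 CPM at 24 h, 61.3, 60.4 and 60.2 CPM at 48 h, and 44.4, 46.4 and 44.4 CPM at 72 h. FANCD2 had a log2 fold change of 1.58 ± 0.062 at 24 h (adjusted p = 1.77e-15) and 1.17 ± 0.063 at 72 h. FANCI had 51.8, 50.5 and 53.1 CPM without Dox, 139, 159 and 139 CPM at 24 h, 122, 131 and 123 CPM at 48 h, and 101, 109 and 104 CPM at 72 h. FANCI had a log2 fold change of 1.49 ± 0.061 at 24 h (adjusted p = 3.4e-15) and 1.01 ± 0.061 at 72 h, and without the second 72 h library the last value was 0.99 and not called. In CPM, the 72 h libraries of both genes lay below the 24 h libraries and above the No Dox libraries. In TPM, which allows for length, the 72 h and 24 h libraries overlapped in both. FANCI averaged 58.03 TPM at 24 h and 57.87 TPM at 72 h, and FANCD2 averaged 25.1 and 22.3 TPM.

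**Figure D2:**
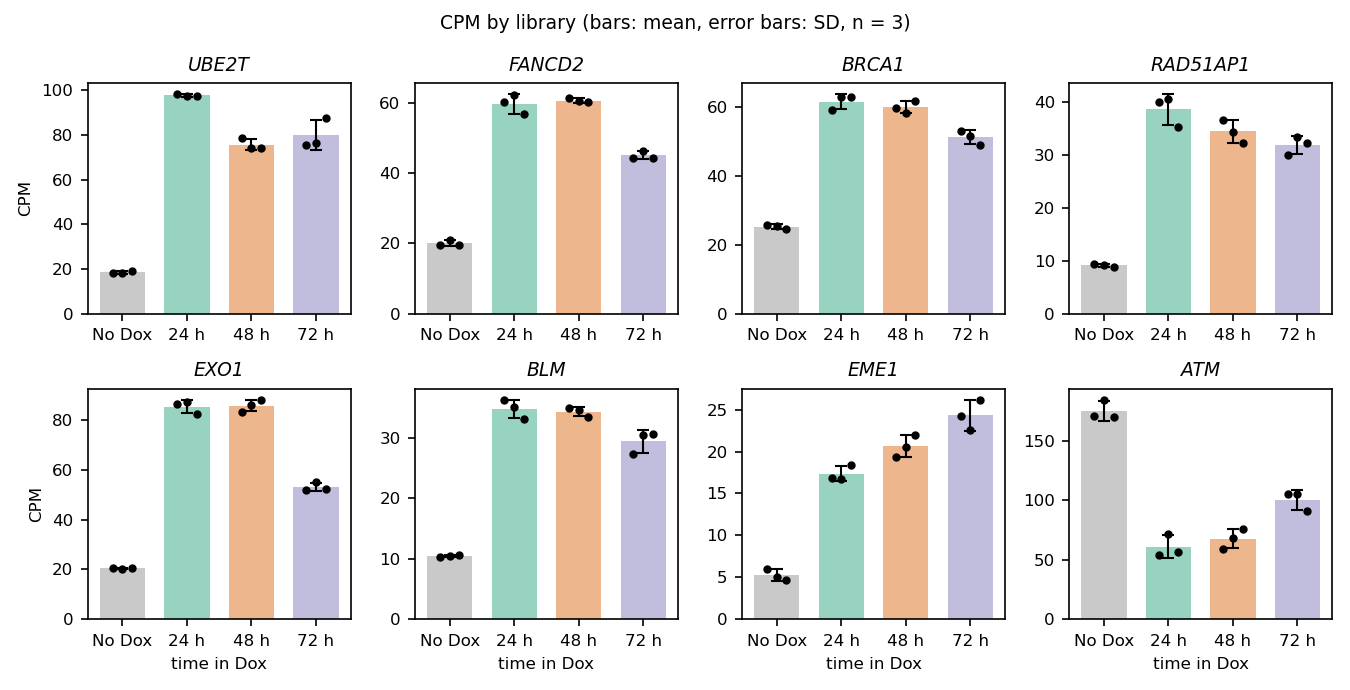
CPM in each library (points), group mean (bars) and SD (error bars, n = 3) for 8 of the genes, from No Dox to 72 h in Dox. In UBE2T, FANCD2, BRCA1, RAD51AP1, EXO1, BLM and EME1 every Dox library lies above the No Dox libraries, and in ATM every Dox library lies below them.

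Of the BRCA genes and their partners, 4 of 5 were called higher at 24 h, 4 at 48 h and 3 at 72 h. BRIP1, the helicase that binds the BRCT domains of BRCA1, had 15.4, 15.5 and 16.9 CPM without Dox, 38.4, 47.1 and 42.1 CPM at 24 h, 38.7, 42.8 and 43.2 CPM at 48 h, and 28.5, 33.4 and 29.95 CPM at 72 h. BRIP1 had a log2 fold change of 1.41 ± 0.086 at 24 h (adjusted p = 3.22e-12) and 0.94 ± 0.088 at 72 h, just under the threshold. BARD1, which forms the ubiquitin ligase with BRCA1, had 8.20, 6.31 and 9.55 CPM without Dox, 19.8, 22.1 and 19.5 CPM at 24 h, 20.8, 24.6 and 21.4 CPM at 48 h, and 25.4, 24.5 and 22.3 CPM at 72 h. BARD1 had a log2 fold change of 1.34 ± 0.12 at 24 h (adjusted p = 1.11e-09) and 1.56 ± 0.11 at 72 h. BARD1 thus had its highest mean at the last time and BRIP1 its lowest Dox mean.

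BRCA1 (ENSG00000012048, chr17:43044295-43170245 on the minus strand) had 25.7, 25.4 and 24.5 CPM without Dox, 58.96, 62.8 and 62.8 CPM at 24 h, 59.6, 58.2 and 61.6 CPM at 48 h, and 52.96, 51.5 and 49.04 CPM at 72 h. BRCA1 had a log2 fold change of 1.28 ± 0.060 at 24 h (adjusted p = 3.43e-14) and 1.02 ± 0.060 at 72 h. Without the first 72 h library the value at 72 h was 0.997 and fell just under the threshold. BRCA2, which loads the recombinase, had log2 fold changes of 1.05 ± 0.10, 1.26 ± 0.099 and 1.03 ± 0.10 at 24, 48 and 72 h, called at each. BRCA2 was not called at 24 h without the second 24 h library (0.91) nor at 72 h without the second No Dox library (0.99). In TPM, which allows for length, BRCA2 averaged 6.04 ± 1.44, 7.86 ± 1.82 and 8.83 ± 2.56 at these times, against 2.24 ± 0.26 without Dox (SD, n = 3 each). The TPM ranges of the Dox groups overlapped each other. PALB2, the protein that joins BRCA1 to BRCA2, had the smallest difference of this group at 24 h, with 23.8, 24.5 and 23.8 CPM without Dox, 31.6, 31.6 and 30.5 CPM at 24 h, 30.6, 34.1 and 31.3 CPM at 48 h, and 26.4, 24.7 and 28.4 CPM at 72 h. PALB2 had a log2 fold change of 0.38 ± 0.070 at 24 h (adjusted p = 5.36e-05) and 0.15 ± 0.071 at 72 h (adjusted p = 0.0694), and it was never called.

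Of the 5 recombinase paralogues, proteins that help the recombinase filament to form, 3 were called higher at 24 h, 2 at 48 h and 1 at 72 h. XRCC3 had 16.1, 16.2 and 17.6 CPM without Dox, 51.2, 48.6 and 49.1 CPM at 24 h, 43.8, 38.1 and 42.3 CPM at 48 h, and 32.6, 31.04 and 33.6 CPM at 72 h. XRCC3 had a log2 fold change of 1.57 ± 0.071 at 24 h (adjusted p = 2.08e-14) and 0.96 ± 0.073 at 72 h, where it was not called with all libraries but was called without the third No Dox library (1.01) and with effective lengths in the fit (1.23). RAD51C, its partner in a dimer, had 14.00, 12.9 and 13.7 CPM without Dox, 39.9, 39.3 and 40.8 CPM at 24 h, 40.1, 40.2 and 37.7 CPM at 48 h, and 31.3, 30.3 and 33.7 CPM at 72 h. RAD51C had a log2 fold change of 1.56 ± 0.070 at 24 h (adjusted p = 1.88e-14) and 1.23 ± 0.071 at 72 h, and was the paralogue called at all 3 times. XRCC2 had 17.6, 18.2 and 18.5 CPM without Dox, 33.4, 43.6 and 36.04 CPM at 24 h, 23.3, 28.2 and 29.2 CPM at 48 h, and 22.9, 28.04 and 24.7 CPM at 72 h, and its value of 1.06 ± 0.10 at 24 h (adjusted p = 6.55e-09) rested in part on the second library, without which it was 0.94. The XRCC2 mean was nearer to No Dox at 48 h and 72 h, with log2 fold changes of 0.57 ± 0.11 and 0.47 ± 0.11.

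RAD51D, which pairs with XRCC2, had 12.8, 13.7 and 11.9 CPM without Dox, 20.7, 21.1 and 23.1 CPM at 24 h, 23.5, 21.8 and 21.9 CPM at 48 h, and 19.4, 16.3 and 19.3 CPM at 72 h. RAD51D had a log2 fold change of 0.76 ± 0.089 at 24 h (adjusted p = 1.35e-07), the smallest of the paralogues. RAD51B, the least abundant paralogue by TPM without Dox (3.55 TPM), had log2 fold changes of 0.93 ± 0.18, 0.93 ± 0.18 and 0.91 ± 0.18. It was not called with all libraries unless effective lengths entered the fit, but it was called at 24 h without the first No Dox or the third 24 h library (1.04 and 1.02), at 48 h without the first No Dox or the third 48 h library (1.04 for each) and at 72 h without the first No Dox or the second 72 h library (1.02 for each).

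The 4 accessory factors of strand exchange were called higher at all 3 times, with a median log2 fold change of 1.77 at 24 h, the largest of any role. RAD51AP1 (ENSG00000111247, chr12:4538798-4560047 on the plus strand), which stimulates joint molecule formation, had 9.39, 9.09 and 8.76 CPM without Dox, 39.98, 40.6 and 35.3 CPM at 24 h, 36.6, 34.3 and 32.3 CPM at 48 h, and 29.9, 33.4 and 32.2 CPM at 72 h. RAD51AP1 had a log2 fold change of 2.09 ± 0.084 at 24 h (adjusted p = 2.69e-15). RAD54L, a translocase that helps the filament to invade the duplex, had 10.7, 12.8 and 12.4 CPM without Dox, 42.4, 41.1 and 40.9 CPM at 24 h, 49.1, 46.8 and 47.5 CPM at 48 h, and 37.03, 38.3 and 39.1 CPM at 72 h. RAD54L had a log2 fold change of 1.80 ± 0.073 at 24 h (adjusted p = 3.07e-15). Its relative RAD54B had 6.12, 6.18 and 6.20 CPM without Dox, 17.5, 23.2 and 21.3 CPM at 24 h, 19.9, 22.3 and 20.6 CPM at 48 h, and 14.8, 18.8 and 14.7 CPM at 72 h. RAD54B had a log2 fold change of 1.74 ± 0.12 at 24 h (adjusted p = 3.17e-11). RAD54L had its highest mean at 48 h, and the 48 h and 24 h libraries of RAD54B overlapped.

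MND1, which forms with PSMC3IP a cofactor of meiotic strand exchange that somatic cells can also express, had its highest mean at 72 h. It had 6.86, 7.70 and 6.99 CPM without Dox, 22.8, 19.3 and 23.8 CPM at 24 h, 24.9, 23.3 and 23.01 CPM at 48 h, and 26.6, 29.4 and 28.4 CPM at 72 h. MND1 had a log2 fold change of 1.61 ± 0.097 at 24 h (adjusted p = 2.59e-12), 1.73 ± 0.097 at 48 h and 1.97 ± 0.095 at 72 h. All 3 libraries at 72 h were above all 3 at 24 h, with a log2 fold change between these times of 0.36 ± 0.082 (adjusted p = 0.000821).

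End resection was divided. EXO1 (ENSG00000174371, chr1:241847967-241895148 on the plus strand), the long-range 5′ to 3′ exonuclease, had 20.6, 20.00 and 20.5 CPM without Dox, 86.6, 87.3 and 82.5 CPM at 24 h, 83.5, 86.02 and 88.3 CPM at 48 h, and 52.1, 55.1 and 52.4 CPM at 72 h. EXO1 had a log2 fold change of 2.07 ± 0.058 at 24 h (adjusted p = 6.09e-18) and 1.38 ± 0.059 at 72 h, and was called at every time. RBBP8, which encodes the resection factor CtIP, had 42.5, 41.3 and 42.5 CPM without Dox, 83.3, 91.5 and 85.7 CPM at 24 h, 73.7, 77.6 and 76.99 CPM at 48 h, and 51.6, 62.1 and 56.3 CPM at 72 h. RBBP8 was called at 24 h (1.04 ± 0.064, adjusted p = 3.85e-12) but not at 48 h (0.85 ± 0.065) or 72 h (0.43 ± 0.065). NBN, the adaptor of the MRN complex, which binds broken ends first, had 55.2, 53.6 and 58.8 CPM without Dox, 67.3, 71.6 and 69.00 CPM at 24 h, 66.3, 69.9 and 71.5 CPM at 48 h, and 67.95, 66.6 and 68.6 CPM at 72 h. NBN had a log2 fold change of 0.31 ± 0.056 at 24 h (adjusted p = 3.83e-05). The other MRN genes were not called either. In the edgeR fit of counts they lay below No Dox, with log2 fold changes at 24 h of -0.35 ± 0.061 for the nuclease gene MRE11 (adjusted p = 2.68e-05) and -0.53 ± 0.052 for RAD50 (adjusted p = 8.98e-09). Thus 3 of 5 resection genes never reached the fold threshold. In TPM, which allows for length, MRE11 averaged 17.9, 21.4 and 20.5 at 24, 48 and 72 h, against 19.6 without Dox. RAD50 averaged 36.4, 45.15 and 54.2 TPM at these times, against 50.6 without Dox.

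Of the dissolution complex, which separates joined duplexes without crossing over, BLM was called at all 3 times. BLM (ENSG00000197299, chr15:90717346-90816166 on the plus strand), the helicase, had 10.2, 10.5 and 10.6 CPM without Dox, 36.2, 35.1 and 33.1 CPM at 24 h, 34.9, 34.6 and 33.5 CPM at 48 h, and 27.3, 30.5 and 30.6 CPM at 72 h. BLM had a log2 fold change of 1.74 ± 0.076 at 24 h (adjusted p = 1.06e-14) and 1.499 ± 0.077 at 72 h. RMI1 had 9.90, 10.6 and 9.30 CPM without Dox, 17.3, 22.7 and 21.2 CPM at 24 h, 16.1, 18.3 and 18.99 CPM at 48 h, and 14.2, 14.96 and 15.5 CPM at 72 h. RMI1 was called at 24 h alone (1.04 ± 0.11, adjusted p = 1.29e-08), a call that was lost without the second 24 h library (0.96). RMI2, the smaller scaffold subunit, had 5.29, 6.50 and 5.51 CPM without Dox, 11.3, 10.04 and 10.5 CPM at 24 h, 18.2, 15.6 and 16.7 CPM at 48 h, and 14.3, 14.6 and 16.3 CPM at 72 h. RMI2 was not called at 24 h (0.89 ± 0.11) but was called at 48 h (1.55 ± 0.11, adjusted p = 4.51e-11) and 72 h (1.40 ± 0.11). The 2 RMI genes differed in their order over time, with RMI1 highest at 24 h and RMI2 highest at 48 h.

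Among the nuclease genes, EME1 was called at all 3 times, and SLX4 and MUS81 at none. EME1 (ENSG00000154920, chr17:50373220-50381483 on the plus strand), the partner that MUS81 needs to cut branched DNA, had 6.03, 5.05 and 4.73 CPM without Dox, 16.9, 16.8 and 18.4 CPM at 24 h, 19.4, 20.6 and 22.03 CPM at 48 h, and 24.2, 22.5 and 26.2 CPM at 72 h. EME1 had a log2 fold change of 1.71 ± 0.11 at 24 h (adjusted p = 5.49e-12), 1.96 ± 0.11 at 48 h and 2.20 ± 0.10 at 72 h, the largest of the 39 genes at 72 h. SLX4, the scaffold on which crosslink nucleases assemble, had 14.5, 15.2 and 14.1 CPM without Dox, 22.5, 21.02 and 22.3 CPM at 24 h, 24.98, 20.6 and 24.04 CPM at 48 h, and 26.8, 26.98 and 26.3 CPM at 72 h. SLX4 had a log2 fold change of 0.59 ± 0.083 at 24 h (adjusted p = 1.75e-06) and 0.87 ± 0.081 at 72 h. MUS81, the catalytic subunit, had log2 fold changes of 0.68 ± 0.078 at 24 h and 0.32 ± 0.079 at 72 h. MUS81 exceeded EME1 in TPM by a ratio of 2.21 ± 0.15 in 24 h cells, 1.88 ± 0.17 in 48 h cells and 1.53 ± 0.22 in 72 h cells, set against 4.02 ± 1.02 without Dox (SD, n = 3 each).

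None of the 3 kinase genes was called higher at any time, and ATM was called lower. ATM (ENSG00000149311, chr11:108223044-108369102 on the plus strand), the kinase that answers double-strand breaks, had 171, 185 and 169.8 CPM without Dox, 54.2, 71.8 and 56.5 CPM at 24 h, 59.3, 68.02 and 75.6 CPM at 48 h, and 105, 105 and 90.5 CPM at 72 h. ATM had a log2 fold change of -1.52 ± 0.092 at 24 h (adjusted p = 2.79e-12), -1.38 ± 0.092 at 48 h (adjusted p = 1.64e-11) and -0.81 ± 0.089 at 72 h, called lower at 24 h and 48 h but not at 72 h. ATR, the kinase of stalled replication forks, had 52.4, 50.2 and 47.95 CPM without Dox, 53.2, 64.3 and 60.05 CPM at 24 h, 52.2, 59.9 and 63.8 CPM at 48 h, and 48.1, 55.6 and 48.5 CPM at 72 h. ATR had a log2 fold change of 0.24 ± 0.080 at 24 h (adjusted p = 0.0116) and 0.012 ± 0.081 at 72 h (adjusted p = 0.9), with overlapping libraries at 48 h and 72 h. CHEK1, the checkpoint kinase that ATR activates, had log2 fold changes of 0.70 ± 0.065, 0.57 ± 0.065 and 0.27 ± 0.066, all under the threshold.

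At 48 h, 21 genes (53.8%) were called higher than in No Dox cells, against 10.6% of all genes tested, and 1 (ATM) was called lower, against 14.4%. At 72 h, 17 genes (43.6%) were called higher, against 10.2% of all genes. By edgeR no gene of the 39 was called lower at 72 h, against 12.3% of all genes, and 0 were called lower by DESeq2. At an edgeR unadjusted p under 0.05, 3 were lower, where 34.8% of all genes were lower even at an adjusted p under 0.05. The 16 genes called higher at all 3 times were UBE2T, FANCG, FANCB, FANCD2, FANCI, BRCA1, BRCA2, BARD1, RAD51C, RAD51AP1, RAD54L, RAD54B, MND1, EXO1, BLM and EME1. BRIP1, FANCA, FANCC and XRCC3 were called at 24 h and 48 h, FANCM, RBBP8, RMI1 and XRCC2 at 24 h alone, and RMI2 at 48 h and 72 h, so that 25 genes were called higher at 1 or more times. Another 13 were never called, namely FANCE, FANCF, FANCL, PALB2, RAD51B, RAD51D, MRE11, RAD50, NBN, MUS81, SLX4, ATR and CHEK1. In CPM, the Dox and No Dox libraries overlapped in FANCE, FANCF and ATR at 48 h and 72 h and in FANCL at 48 h. They did not overlap in the other members, of which 32 were higher and 3 lower at 48 h (37.4% of all genes in each direction) and 33 were higher and 3 lower at 72 h (36.1% and 36.8% of all genes).

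The later times were also compared with the earlier ones. In none of the 3 comparisons of 48 h with 24 h, 72 h with 48 h and 72 h with 24 h was a member called by edgeR or by DESeq2, where 3.08%, 2.3% and 8.28% of all genes were called higher and 1.44%, 0.938% and 3.99% lower by edgeR. At an unadjusted p under 0.05, 9 members were higher and 22 lower at 72 h than at 24 h, beside 32.4% and 31.9% of all genes. By the same rule 4 were higher and 20 lower at 72 h than at 48 h, beside 22.7% and 24.1% of all genes, and 6 were higher and 10 lower at 48 h than at 24 h, beside 22.5% and 22.4%. At adjusted p under 0.05 without the fold threshold, 22 members were lower at 72 h than at 24 h and 8 were higher, beside 30.2% and 30.5% of all genes. The median log2 fold change at 72 h against 24 h was -0.23 for the 39 genes and 0.01 for all genes tested. In CPM, the 72 h libraries lay wholly above the 24 h libraries in 9 members and wholly below them in 22, beside 31.7% and 31.6% of all genes.

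The members that were lower at 72 h than at 24 h by the widest margins were FANCA (-0.70 ± 0.056 on the log2 scale, adjusted p = 1.14e-09), EXO1 (-0.69 ± 0.053) and RBBP8 (-0.62 ± 0.063), and those higher were ATM (0.72 ± 0.093, adjusted p = 1.13e-06), RMI2 (0.51 ± 0.10) and EME1 (0.50 ± 0.088). MND1, RAD50, SLX4, FANCF and MRE11 were the others higher at 72 h. Within the same libraries, the 22 G1/S genes had a median log2 fold change of -0.73 between 72 h and 24 h, with CCNE1, CCNE2, E2F1, E2F2 and FEN1 called lower, whereas the 22 G2/M genes had a median of -0.13. The part of either list in the values of the members was not tested. The mean CPM was highest at 24 h in 21 of the 39 genes, at 48 h in 9, at 72 h in 5 and without Dox in 4.

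**Figure D3:**
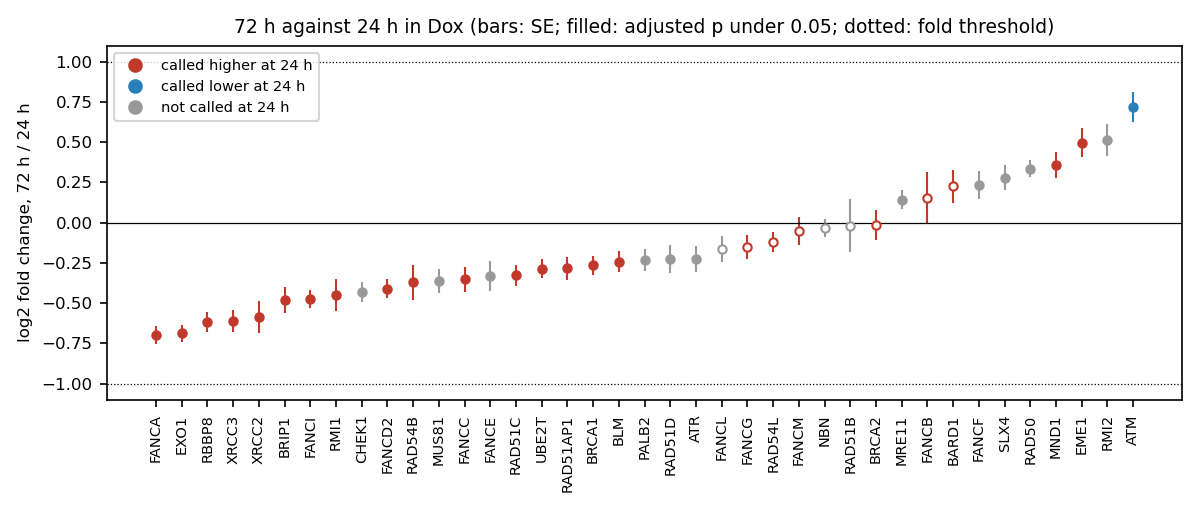
Log2 fold change at 72 h against 24 h in Dox for the 39 genes, in order (edgeR, bars are the SE, dotted lines mark the fold threshold). Filled points have an adjusted p under 0.05. Most genes called higher at 24 h (red) lie below 0, MND1 and EME1 are filled and above it, and ATM (blue), lower at 24 h, has the highest value.

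Levels between genes were compared in TPM, which allows for length. At 24 h the most abundant of the 39 transcripts were UBE2T (184 ± 4.12 TPM), RAD51C (70.95 ± 1.48), FANCI (58.03 ± 7.46), RBBP8 (56.1 ± 2.57) and FANCA (52.3 ± 6.78, SD, n = 3 each), of which the last 3 did not differ beyond their spread. Without Dox they were ATM (52.3 ± 6.25 TPM), RAD50 (50.6 ± 2.30), UBE2T (33.8 ± 1.55), CHEK1 (27.6 ± 1.58), RBBP8 (26.4 ± 0.973) and RAD51C (25.6 ± 2.21, SD, n = 3 each). ATM and RAD50 did not differ beyond their spread, nor did CHEK1, RBBP8 and RAD51C. ATM stood at rank 19 at 24 h and at rank 12 at 72 h, against rank 1 without Dox. The 39 group means ranged from 3.39 to 184 TPM at 24 h with a median of 17.9, against 1.59 to 52.3 TPM without Dox with a median of 8.11. Summed over the 39 genes, TPM was 507 ± 12.97 without Dox, 1053 ± 46.1 at 24 h, 1018 ± 39.7 at 48 h and 977 ± 60.3 at 72 h.

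Proportions between partners of the same complex differed beyond the spread of libraries in some pairs and not in others. UBE2T stood at 8.34 ± 0.37 times the TPM of the ligase gene FANCL at 24 h and 6.70 ± 0.92 times at 72 h, against 1.98 ± 0.029 times without Dox (SD, n = 3 each), and the ranges did not overlap. The ratio of RAD50 to MRE11 was 2.04 ± 0.13 at 24 h and 2.64 ± 0.09 at 72 h, against 2.59 ± 0.21 without Dox, with overlap at 72 h only. The ratio of RMI1 to RMI2 was 0.86 ± 0.22 at 24 h and 0.47 ± 0.029 at 72 h, against 0.79 ± 0.065 without Dox, with overlap at 24 h only. The ratio of FANCI to FANCD2 was 2.34 ± 0.52 at 24 h and 2.56 ± 0.76 at 72 h, against 3.11 ± 0.40 without Dox, with overlap at both times. The ratio of BRCA1 to BARD1 was 3.58 ± 0.36 at 24 h and 2.83 ± 0.36 at 72 h, against 3.35 ± 0.52 without Dox, with overlapping libraries. These ratios are descriptions and were not tested.

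Other genes of the pathway and other repair pathways were compared in the same fit, in lists that were also chosen with earlier results of these data known. Of 54 further FA and recombination factors, 18 were called higher at 24 h (median log2 fold change 0.71), 15 at 48 h and 10 at 72 h. Of all genes tested, 12%, 10.6% and 10.2% were called higher at these times. By edgeR none of them was called lower at 24 h or at 72 h, against 17.7% and 12.3% of all genes, while ERCC1 and ABRAXAS1 were called lower at 48 h, against 14.4%. At an edgeR unadjusted p under 0.05, 12 and 9 of the 54 were lower at 24 h and 72 h. Of all genes, 38.1% and 34.8% were lower at these times even at an adjusted p under 0.05. The named examples were UHRF1, a ubiquitin ligase that binds crosslinked DNA, at 290.2 ± 2.97 CPM at 24 h, against 46.7 ± 3.82 CPM without Dox, CLSPN, the adaptor of CHEK1, at 60.7 ± 5.79 against 9.96 ± 2.05 CPM, and PSMC3IP, the partner of MND1, at 34.3 ± 2.67 against 6.47 ± 1.17 CPM (SD, n = 3 each). UHRF1, PSMC3IP and CLSPN were the genes of this list called lower at 72 h than at 24 h, with log2 fold changes of -1.28, -1.07 and -1.03. MND1, the partner of PSMC3IP, had a log2 fold change of 0.36 ± 0.082 between the same times.

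The counts of the next lists at 24 h stand beside 12% of all genes called higher and 17.7% called lower. Mismatch repair had 3 of 7 genes called higher at 24 h, among them MSH6 (190.2 ± 4.87 CPM, against 82.9 ± 3.34 CPM without Dox). In base excision repair 3 of 17 genes were called higher, among them the poly(ADP-ribose) polymerase PARP2 (46.9 ± 3.39 against 15.2 ± 0.115 CPM) and the glycosylase NTHL1 (36.2 ± 2.20 against 13.2 ± 1.18 CPM), and the glycosylase NEIL1 was called lower (2.42 ± 0.593 against 24.6 ± 0.819 CPM). Nucleotide excision repair and end joining had fewer calls, with 1 of 17 genes (ERCC2, 75.2 ± 6.06 against 33.1 ± 1.52 CPM) and 1 of 18 genes (XRCC4, 14.9 ± 0.499 against 7.30 ± 0.397 CPM) called higher at 24 h. The median log2 fold changes at 24 h were 0.62 for mismatch repair, 0.59 for base excision repair, 0.15 for nucleotide excision repair and 0.11 for end joining, beside 1.04 for the 39 genes, 1.79 for the G1/S list and 2.14 for the G2/M list. In the G1/S list, the largest log2 fold changes at 24 h were those of RRM2 (438 ± 14.2 against 49.02 ± 1.29 CPM), CDC6 and GINS2. In the list used for G2/M they were those of CDC20 (614 ± 25.8 against 58.8 ± 1.89 CPM), MYBL2 and AURKA. MYBL2 had a log2 fold change of -0.86 at 72 h against 24 h, beside medians of -0.73 for the G1/S list and -0.13 for the G2/M list. At 72 h, 12 of 22 G1/S genes (median 1.02) and all 22 G2/M genes (median 1.94) were called higher than in No Dox cells, against 10.2% of all genes.

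**Figure D4:**
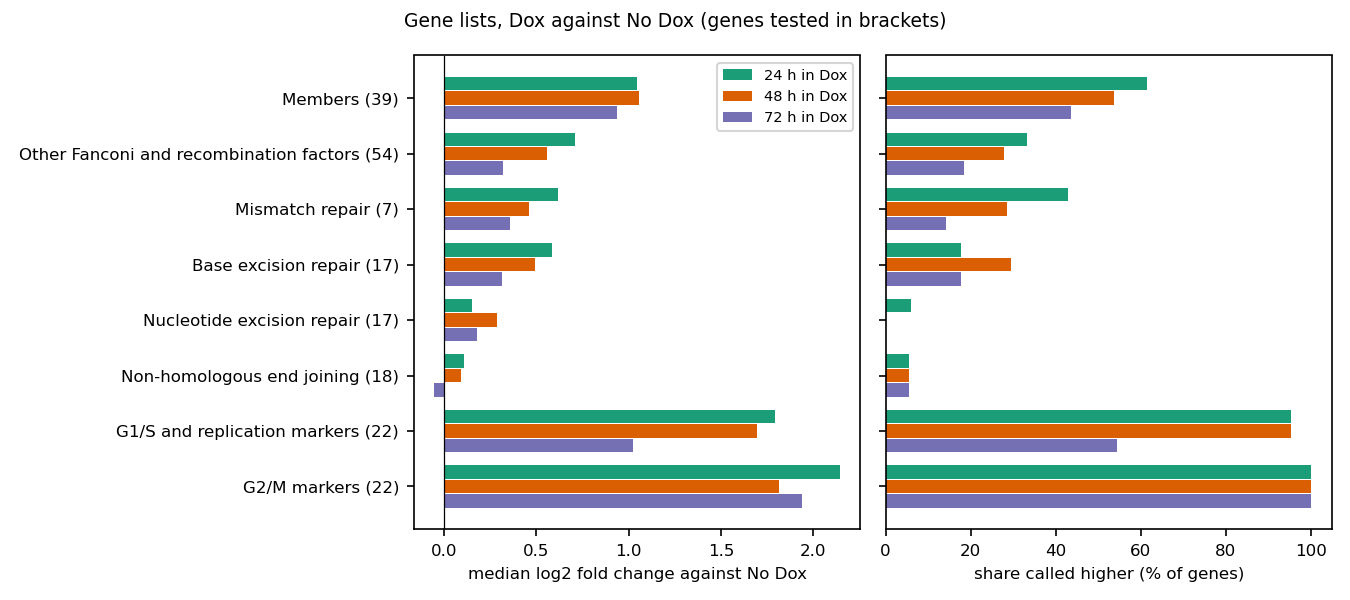
Median log2 fold change against No Dox (left) and share of genes called higher (right) for the 39 genes and for other lists at 24, 48 and 72 h in Dox, with the number of genes tested in brackets. The 39 genes, with a median of 1.04 at 24 h, lie between the other repair lists (0.11 to 0.71) and the cell cycle lists (1.79 and 2.14).

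The effective length that RSEM assigned to a gene reflects which of its transcripts took the reads, and it was compared as a second readout. At 72 h it was lower than in every No Dox library in 10 members (BRCA1, BRCA2, FANCC, FANCD2, FANCI, FANCL, MRE11, MUS81, RAD50 and RAD54B), beside 14% of all genes, and higher in EXO1 and MND1, beside 6.18% of all genes. At 24 h 2 members were lower (12.5% of all genes) and 3 higher (10.1%), and at 48 h 3 were lower (11% of all genes) and 4 higher (8.59%). Between the Dox times, 9 members were lower at 72 h than at 24 h (12.2% of all genes) and 1, EME1, was higher (6.51%). BRCA2, singled out after its values were seen, had 7298, 8242 and 9693 nt without Dox, 4922, 7086 and 8486 nt at 24 h, 5306, 7831 and 5369 nt at 48 h, and 6799, 4404 and 3517 nt at 72 h. FANCD2 had 3829.7, 3532 and 3251 nt without Dox, 2805, 3516 and 2522 nt at 24 h, 3309, 3184 and 2996 nt at 48 h, and 2709, 2535 and 2379.5 nt at 72 h. The BRCA2 libraries were spread widely within every group, and those of FANCD2 at 72 h were shorter than all No Dox libraries. When effective lengths entered the edgeR fit, BRCA2 and FANCD2 kept their calls at all 3 times, FANCM and RMI1 lost theirs at 24 h (0.95 and 0.97) and FANCA at 48 h (0.997), while RAD51B at 24 h (1.19) and 72 h (1.01), RAD51D at 48 h (1.13) and XRCC3 at 72 h (1.23) were called.

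**Figure D5:**
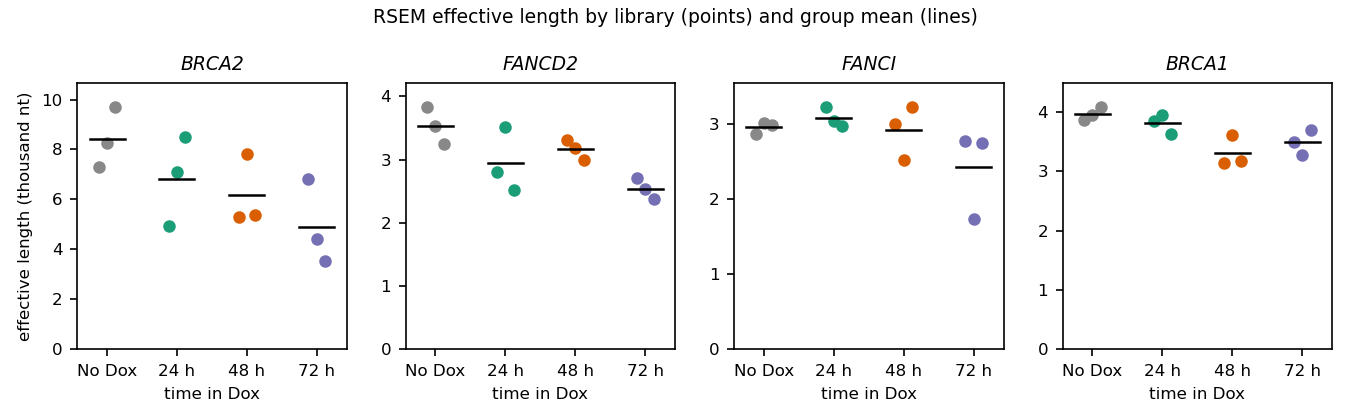
RSEM effective length in kb for BRCA2, FANCD2, FANCI and BRCA1, by library (points) and group mean (lines). The 4 genes shown are all among the 10 members whose 72 h libraries lie below all No Dox libraries. EXO1 and MND1, which were higher at 72 h, are not shown. BRCA2 has the widest spread within groups.

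Some of these genes overlap others, and the strand setting of the counting is not given in the sources used here. By GENCODE version 44, 76.7% of the exonic bases of XRCC3 are shared with KLC1 on the other strand, and 76.9% of those of RAD50, 66% of those of RAD54B and 55.5% of those of MND1 are shared with a gene on the same strand. Smaller overlaps on the other strand concern RAD54L with LRRC41 (19.9%), FANCA with ZNF276 (19.6%), EME1 with LRRC59 (16.4%) and MUS81 with CFL1 (13.9%). The SD that RSEM gave for reads shared between genes was at most 2.76% of the count, in RAD54B, and was 0 in the members other than RAD54B, RAD51D and FANCD2. This SD covers only genes of GENCODE version 22, used by the authors for counting, which may lack some of the overlapping genes.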

How the data were processed

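RNA from 12 libraries of TAZ-4SA MCF10A cells was sequenced by the authors as paired-end reads from poly(A)-selected, strand-marked cDNA. Alignment by the authors was to GRCh38 by STAR, with the GENCODE version 22 annotation, and they deposited RSEM gene tables with expected counts, TPM and the effective length of each gene (in nucleotides), with posterior SDs of the counts. The sources used here give neither the upstream tool versions nor the strand setting. The deposited FPKM values and the other columns were not used.

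Expected counts as deposited were rounded to whole numbers, and 56321 of 60483 rows were named from GENCODE version 44. The 39 members and all lists were chosen with earlier results of these data known. Genes passing filterByExpr (14822) were fitted over all 4 groups, which share 1 estimate of the spread, with TMM factors and the quasi-likelihood test of edgeR 4.0.16 (limma 3.58.1, R 4.3.3), after the code had been tested on simulated data. P-values were adjusted by Benjamini-Hochberg over all genes. Calls needed an adjusted p under 0.05 together with a log2 fold change of 1 or more in size. DESeq2 1.42.0, other scalings, filters, effective lengths and left-out libraries were alternatives. Replicates differed by 2.56 to 8.60 chi-square per gene, above sampling noise, so no library was counted as deposited more than once. Per-library values are given, within each role, for up to 3 called members with the largest change at 24 h and for the 1 member with the smallest, and in other lists up to 3 called genes are named by the same order, except some that are not reported here. Promoters were read from RefSeq's table for GRCh38.p14, leaving out chromosome 8.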

Additional observations from a re-analysis of the deposited data

Results flagged for a closer look

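In 9 genes the effect of Dox differed between 72 h and 24 h at adjusted p under 0.05 (edgeR quasi-likelihood test, Benjamini-Hochberg over 14822 genes) and the gene was called against No Dox at only 1 of these times, which held for 23.1% of the members and for 15.5% of all genes. The log2 fold change at 72 h against 24 h was -0.70 ± 0.056 (SE) for FANCA, -0.62 ± 0.063 for RBBP8, -0.61 ± 0.066 for XRCC3, -0.59 ± 0.099 for XRCC2, -0.48 ± 0.080 for BRIP1, -0.45 ± 0.099 for RMI1 and -0.35 ± 0.077 for FANCC, which were called higher at 24 h and not at 72 h. It was 0.51 ± 0.10 for RMI2, called higher at 72 h and not at 24 h, and 0.72 ± 0.093 for ATM, called lower at 24 h and not at 72 h. In CPM, the 72 h libraries did not overlap the 24 h libraries in each of the 9 genes. In TPM, which allows for length, they overlapped in FANCC and RMI1 and not in the others. With effective lengths in the edgeR fit, RMI1 was not called at 24 h (0.97) and XRCC3 was called at 72 h (1.23), so these genes left the pattern. Without the second 24 h library, FANCC, XRCC2 and RMI1 were not called at 24 h (log2 fold changes of 0.995, 0.94 and 0.96).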

How the results depend on the processing

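Leaving out each library in turn gave 18 to 25 members called higher at 24 h, 20 to 22 at 48 h and 16 to 19 at 72 h, with 1 called lower at 24 h and at 48 h and 0 at 72 h in each fit, and 0 called in either direction between Dox times. Without the fold threshold, 35 members were higher and 4 lower at 24 h (37.1% and 38.1% of all genes), 33 higher and 3 lower at 48 h (36% and 35.8%), 32 higher and 3 lower at 72 h (34.3% and 34.8%), 4 higher and 8 lower at 48 h than at 24 h (18.3% each), 4 higher and 18 lower at 72 h than at 48 h (18.6% and 20.1%), and 8 higher and 22 lower at 72 h than at 24 h (30.5% and 30.2%), since values under the threshold then count. The other settings called 17 (edgeR's test against the fold threshold) to 24 members higher at 24 h, with 18 under upper-quartile scaling. The 12 counts kept within 1.5 times of their values under DESeq2, RLE and upper-quartile scaling, effective lengths, other filters and fits of only the groups compared. Over single genes, 127 values gained a call and 48 lost one. Most of the gains came from removing the fold threshold, and some of the losses from edgeR's test against it. Both settings keep the fold changes of the main fit, so direction could not change in them. Of all values called in either fit, 0 changed direction. Values called in neither fit were not checked for direction. Summed over the members, the ratio to No Dox at 24 h was 1.54 in CPM, beside 2.08 in TPM. The cause of the shifts in the refitted settings and in these ratios was not tested.

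With the replicate number as a block, 23 members were called higher at 24 h, 21 at 48 h and 17 at 72 h, with 1 lower at 24 h and 48 h and 0 in the other comparisons. FANCB (0.98) was the call lost at 24 h. Correlations of same-numbered deviations ran from -0.21 to 0.32 over 10745 genes and exceeded 0.1 in 3 of 18 pairs. The main fit did not use the numbers as pairs. These correlations cannot show whether same-numbered libraries shared a culture or batch. With a common biological coefficient of variation of 5.71%, estimated over all genes together, small changes passed the test, so the fold threshold decides most calls near a log2 fold change of 1, and low genes such as RAD51B and FANCB (39 and 58 counts in the lowest library of each) carry the widest errors.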
